A study of Mus musculus with 18 samples.

Results

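Genes were examined for a response to hemicholinium-3 (HC3) that differed between naïve (M[0]) and IL-4-polarized (M[IL-4]) bone marrow-derived macrophages (BMDM). For each gene, the log2 fold change of HC3 over vehicle (Veh) in M[0] was subtracted from that in M[IL-4]. This difference is the interaction. It equals, gene by gene, the log2 response to IL-4 under HC3 minus the log2 response to IL-4 under Veh. A positive interaction therefore means that HC3 acted more upward, or less downward, in M[IL-4] than in M[0], and a negative one means the reverse. Gene positions are those of GRCm38. Of the 55385 genes in the count table, the 14979 that reached 10 counts in 2 or more of the 18 libraries were tested. The interaction used 12 of the 18 libraries, which form 4 groups of 3.

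HC3 blocks the uptake of choline, the precursor that choline kinase phosphorylates at the first step of phosphatidylcholine synthesis. IL-4 signals through its receptor and the transcription factor STAT6, and it shifts macrophages toward an alternatively activated state with its own receptors, enzymes, chemokines and feedback regulators. Shortage of amino acids and other stresses converge on phosphorylation of eIF2α and on the transcription factor ATF4, a program known as the integrated stress response, while SREBP factors control the genes of sterol and fatty acid synthesis.

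The cells were grown from the marrow of 12-week-old female C57BL/6J mice in medium with L-929 cell supernatant, and no group carries a genetic change. Vehicle (0.1% DMSO) or 250 µM HC3 was given for 24 h, and the cells were then kept without cytokine or with 20 ng/mL IL-4 for another 24 h. The 4 groups are Veh M[0], HC3 M[0], Veh M[IL-4] and HC3 M[IL-4]. Further libraries were treated with 5 µM RSM-932a (RSM), a choline kinase inhibitor, in the same manner. The labels name 3 individual mice as the source but do not say which library came from which mouse, so p-values measure the spread between these libraries.

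Libraries held 17457796 to 19285482 counts of read pairs, and mitochondrial transcripts took a median of 1.77% of them in Veh M[0], 3.39% in HC3 M[0], 1.86% in Veh M[IL-4] and 2.51% in HC3 M[IL-4]. That share covers all genes of the mitochondrial genome, with its ribosomal RNAs, which the paper reports as higher when choline metabolism is inhibited. The mRNA genes are given separately below. Of 18 macrophage markers, 17 passed the count filter. The summed level of all 18 was 27200 to 28500 CPM (counts relative to the TMM-scaled library size) in Veh M[0], 11400 to 12300 in HC3 M[0], 17800 to 18700 in Veh M[IL-4] and 10200 to 11400 in HC3 M[IL-4], so it was lower with HC3 in both states. Whether that reflects fewer such cells or less RNA per cell cannot be told apart in bulk samples. Of 10 stromal markers, 9 passed the filter and none was at 0 in all libraries, with summed levels of 891 to 1530, 2100 to 2810, 496 to 1130 and 990 to 1780 CPM in the same group order. Dendritic cell and neutrophil markers summed to at most 4.47 and 1.08 CPM, with 3 and 2 of 10 genes tested and 0 called for the interaction. Mast cell and basophil markers reached 20.9 CPM in HC3 M[0] against at most 5.87 in Veh M[0], 3.31 in Veh M[IL-4] and 7.75 in HC3 M[IL-4], and eosinophil and megakaryocyte markers 27.5 to 83.6 CPM over all 4 groups. For both lists 4 of 10 genes were tested and 0 called.

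The interaction was called for 186 genes (1.24% of those tested), 72 of them positive (0.481%) and 114 negative (0.761%). A call required a Benjamini-Hochberg false discovery rate (FDR) under 0.05 in edgeR's quasi-likelihood test and a log2 difference of at least 1 or at most -1. On the FDR alone, 970 genes passed (6.48%), with 461 positive and 509 negative. Over all genes tested the median interaction was -0.01 (quartiles -0.23 and 0.21). For genes between these quartiles the log2 change with HC3 was similar in both states, which includes genes without a detected response to HC3. All 186 called genes had the same sign in each of the 3 sets of 4 libraries that share a replicate number. The same libraries chose these genes, so this is a description and not independent evidence. Replicates with the same number varied together within a polarization, and with a block for this number within M[0] and M[IL-4] the count was 288, of which 123 were positive and which included 185 of the 186. With 3 libraries in each group, an exact permutation test of one gene in one state cannot go below p = 0.1, so all FDR values come from the fit across genes.

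The 114 negative genes were mostly genes that IL-4 tended to raise under Veh and no longer under HC3. Their median log2 response to IL-4 was 1.06 under Veh, positive in 111 of 114, and -0.35 under HC3, positive in 43. The 72 positive genes had a median IL-4 response of -1.19 under Veh, positive in 11 of 72, and of 0.31 under HC3, positive in 45. For the response to HC3, the negative genes had a median of 0.41 in M[0] against -1.08 in M[IL-4], and the positive genes -1.26 in M[0] against 0.36 in M[IL-4]. These medians use the contrast that chose the genes and are given as a description. Among all genes tested, HC3 called 1804 in M[0] (12.0%), 5.93% higher and 6.11% lower, and 1536 in M[IL-4] (10.3%), 4.72% higher and 5.53% lower. IL-4 called 997 under Veh (6.66%), 2.83% higher and 3.83% lower, and 594 under HC3 (3.97%), 1.82% higher and 2.14% lower. On the FDR alone these 4 comparisons passed 44.1%, 38.8%, 31.0% and 14.7% of genes in the same order.

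By their calls for HC3, the negative genes fell into a few patterns. 54 were lower with HC3 in M[IL-4] and not called in M[0], 18 were higher in M[0] and not called in M[IL-4], 13 were higher in both states but less so in M[IL-4], 2 were lower in both, and 23 were called in neither. Of the positive genes, 32 were lower with HC3 in M[0] and not called in M[IL-4], 15 were higher in M[IL-4] alone, 7 were lower in both, 5 were higher in both, and 12 were called in neither. In 5 genes HC3 was called in opposite directions. These were *Mboat2*, *Hs3st1*, *Diras2* and *Col7a1*, which were higher in M[0] and lower in M[IL-4], and *Cd27*, which went the other way. Apart from *Mboat2*, they were named after their values were seen and had a highest group mean under 50 counts. Each of these others lost its interaction call with DESeq2. By their calls for IL-4, 42 negative genes were higher with IL-4 under Veh and not called under HC3, and 37 positive genes were lower with IL-4 under Veh and not called under HC3.

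**Figure D1:**
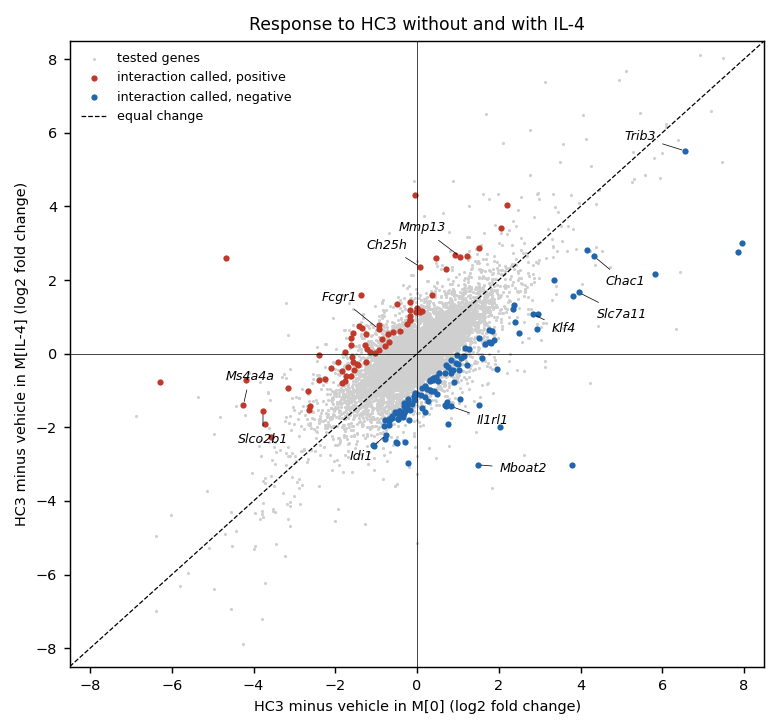
Each point is 1 tested gene, placed by its log2 fold change of HC3 over Veh in M[0] (x axis) and in M[IL-4] (y axis). The 72 genes called with a positive interaction lie above the dashed line of equal change and the 114 called with a negative one below it, and 2 of the 14979 genes lie outside the axes.

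*Mboat2*, which encodes an acyltransferase of phospholipid remodelling, had the largest of these 5 reversals. The gene (ENSMUSG00000020646) lies at chr12:24830879-24964397 of GRCm38, plus strand. Of a short transcript of it (436 bases), 25% is nearly identical to *2900060N12Rik*. Its levels were 0.498, 0.294 and 0.538 CPM in Veh M[0], 1.5, 1.49 and 0.789 in HC3 M[0], 5.22, 6.10 and 4.59 in Veh M[IL-4] and 0.509, 0.553 and 0.876 in HC3 M[IL-4]. Every HC3 library was above every Veh library in M[0] and below every Veh library in M[IL-4]. HC3 raised it by a log2 fold change of 1.48 (SE 0.378) in M[0] and lowered it by -3.02 (SE 0.326) in M[IL-4], an interaction of -4.50 (SE 0.497, edgeR FDR = 2.64e-05). The IL-4 response was 3.55 under Veh and -0.95 under HC3 (FDR = 0.0847), so the increase with IL-4 was no longer called in the presence of HC3.

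Of 48 tested genes known to respond to IL-4, 4 were called positive (all genes 0.481%) and 5 negative (all genes 0.761%). The list median was -0.40 against -0.01 for all genes, or -0.37 without the 8 members for which a group held 3 counts or fewer. The called negative genes were the feedback regulators *Socs2* and *Cish*, the transcription factors *Klf4* and *Myc* and the VEGF receptor *Flt1*. The positive ones were the collagenase *Mmp13*, the mannose receptor *Mrc1*, the lectin *Clec10a* and the cholesterol 25-hydroxylase *Ch25h*. Without replicate 3 of HC3 M[0] or replicate 1 of Veh M[IL-4], 2 of the 4 positive members were called. *Myc* was called at -1.02 (edgeR FDR = 0.00767) and lost its call on leaving out replicate 1 of Veh M[0], replicate 1 or 3 of HC3 M[0], replicate 1 of Veh M[IL-4] or replicate 2 of HC3 M[IL-4]. Of the 9 called genes, 6 had a promoter in the RefSeq table, and none held the STAT motif TTCNNNGAA or its STAT6 form with a spacer longer by 1 base, which 7.02% and 5.85% of all promoters held.

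*Klf4* (ENSMUSG00000003032, chr4:55527143-55532466, minus strand), a zinc finger factor of alternative activation, had 12.4, 10.3 and 12.7 CPM in Veh M[0], 83.0, 78.8 and 92.2 in HC3 M[0], 75.7, 74.4 and 76.4 in Veh M[IL-4] and 164, 145 and 165 in HC3 M[IL-4]. HC3 libraries were above Veh libraries in both states without overlap, and HC3 in M[0] reached the level that IL-4 gave under Veh. The log2 fold change of HC3 was 2.84 (SE 0.0930) in M[0] and 1.07 (SE 0.0809) in M[IL-4], and the interaction was -1.78 (SE 0.122, edgeR FDR = 2.61e-07). *Nfil3*, a basic leucine zipper repressor outside the list, was named after its values were seen. It had 10.9 CPM in each Veh M[0] library, 26.9, 24.8 and 25 in HC3 M[0], 67.5, 84.5 and 77.5 in Veh M[IL-4] and 61.9, 61.5 and 60.9 in HC3 M[IL-4]. HC3 raised it by 1.23 in M[0] and left it 0.32 lower on the log2 scale in M[IL-4], giving an interaction of -1.55 (SE 0.111, FDR = 2.61e-07).

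*Socs2*, a suppressor of cytokine signalling, had 4.15, 2.94 and 5.16 CPM in Veh M[0], 8.03, 5.84 and 6.73 in HC3 M[0], 13.6, 19.6 and 13.6 in Veh M[IL-4] and 6.06, 6.86 and 5.80 in HC3 M[IL-4]. The HC3 libraries were the higher ones in M[0] and the lower ones in M[IL-4], and with HC3 the M[0] and M[IL-4] libraries overlapped. The interaction was -2.06 (SE 0.289, edgeR FDR = 0.000248), with an IL-4 response of 1.93 under Veh and of -0.14 (FDR = 0.736) under HC3. *Cish*, which acts in the same feedback on STAT signalling, was still raised by IL-4 under HC3, by a smaller fold. It rose with IL-4 from 0.320 ± 0.133 to 10.1 ± 0.530 CPM under Veh (SD, n = 3) and from 0.594 ± 0.0344 to 5.94 ± 0.494 under HC3, or by log2 fold changes of 4.97 and 3.31, with an interaction of -1.66 (SE 0.379, FDR = 0.0119).

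*Il1rl1*, the gene for the IL-33 receptor ST2, had 2.88, 2.29 and 2.15 CPM in Veh M[0], 5.14, 3.99 and 3.95 in HC3 M[0], 24.9, 37.4 and 33.4 in Veh M[IL-4] and 11.7, 8.80 and 14.9 in HC3 M[IL-4]. All HC3 libraries were above the Veh libraries in M[0] and below them in M[IL-4]. IL-4 raised it by a log2 fold change of 3.71 (SE 0.219) under Veh and of 1.44 (SE 0.205) under HC3, a difference of -2.27 (SE 0.301, edgeR FDR = 0.000153). *Flt1* differed in that HC3 had no detectable effect in M[0], where it was 1.03 ± 0.0498 CPM with Veh and 1.12 ± 0.127 with HC3. In M[IL-4] it was 158 ± 7.11 and 56.9 ± 4.52 CPM, and the interaction was -1.60 (SE 0.304, FDR = 0.00311). *Tfrc*, the transferrin receptor, likewise had overlapping levels in M[0] (104 ± 21.9 and 124 ± 21.6 CPM) and separate ones in M[IL-4] (522 ± 41.1 with Veh and 267 ± 19.4 with HC3), with an interaction of -1.22 (SE 0.194, FDR = 0.000702). *Flt1* and *Tfrc* fall outside the rule for named genes and were chosen after their values were seen.

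**Figure D2:**
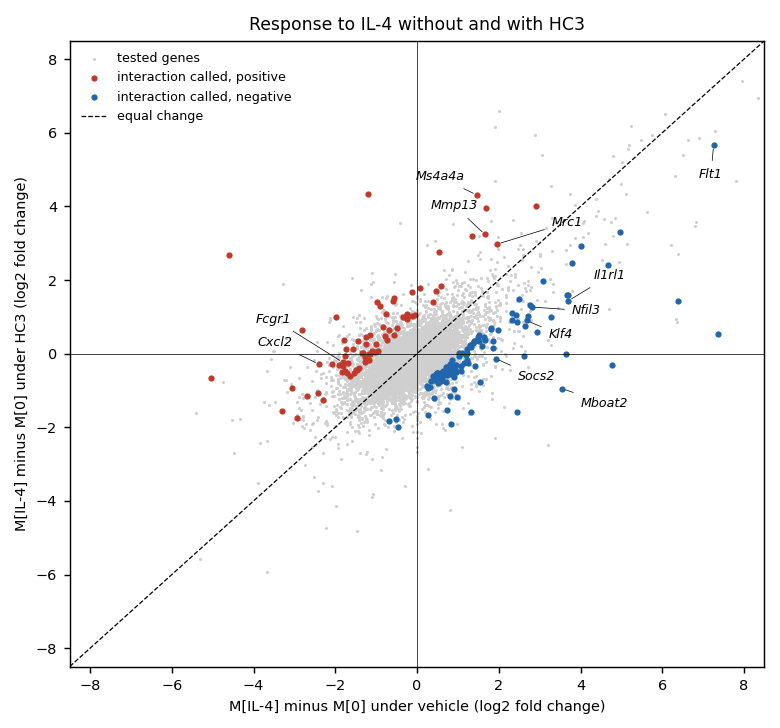
Each point is 1 tested gene, placed by its log2 fold change of M[IL-4] over M[0] under Veh (x axis) and under HC3 (y axis). Called negative genes lie mostly right of 0 on the x axis and below the dashed line of equal change, called positive genes mostly left of 0 and above it, and 10 genes lie outside the axes.

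Several IL-4 genes had the opposite interaction. *Mmp13* had 23.2, 20.9 and 19.7 CPM in Veh M[0], 46.7, 46.0 and 39.5 in HC3 M[0], 59.5, 74.0 and 67.7 in Veh M[IL-4] and 410, 417 and 421 in HC3 M[IL-4]. Each group stood apart from the others. HC3 raised it by 1.05 (SE 0.0853) in M[0] and by 2.63 (SE 0.0813) in M[IL-4] on the log2 scale, an interaction of 1.58 (SE 0.116, edgeR FDR = 2.61e-07). *Ch25h* had 1.27, 0.940 and 1.34 CPM in Veh M[0], 1.23, 1.13 and 1.42 in HC3 M[0], 3.88, 3.02 and 4.65 in Veh M[IL-4] and 18.8, 19.0 and 21.2 in HC3 M[IL-4]. HC3 made no difference beyond the spread of the replicates in M[0], and in M[IL-4] all HC3 libraries were higher, with an interaction of 2.27 (SE 0.336, FDR = 0.000402); another gene lies opposite 11.5% of its exonic bases.

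*Mrc1* was lower with HC3 in both states but less so with IL-4. It had 475, 462 and 433 CPM in Veh M[0], 155, 135 and 113 in HC3 M[0], 1500, 1990 and 1860 in Veh M[IL-4] and 968, 1090 and 1120 in HC3 M[IL-4]. The log2 fold change of HC3 was -1.76 (SE 0.121) in M[0] and -0.75 (SE 0.116) in M[IL-4], so IL-4 raised *Mrc1* by 1.96 under Veh and by 2.98 under HC3. The interaction of 1.01 (SE 0.165, edgeR FDR = 0.000942) stood just past the fold threshold and lost its call on leaving out replicate 1 of Veh M[0], replicate 3 of HC3 M[0], replicate 1 of Veh M[IL-4] or replicate 2 or 3 of HC3 M[IL-4]. *Clec10a*, named outside the rule, was at 5.05 ± 1.26 and 4.43 ± 1.16 CPM with Veh and HC3 in M[0] and at 37.9 ± 9.19 and 71.5 ± 2.58 in M[IL-4] (interaction 1.10, FDR = 0.0212). Of a short transcript of this gene (441 bases), 54.4% is nearly identical to *Mgl2*. The call of *Clec10a* was lost on leaving out replicate 2 of Veh M[0], replicate 2 or 3 of HC3 M[0] or replicate 1 of Veh M[IL-4].

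The interaction could not be measured for 3 markers that M[0] cells hardly transcribe. *Retnla*, the gene for RELMα, held 0 counts in the 6 M[0] libraries, which allows up to 3 counts in each group, and 67833 and 1943 counts in the 3 Veh and 3 HC3 libraries of M[IL-4]. edgeR gave no call for its interaction, and DESeq2 alone gave one (FDR = 0.0356). *Arg1* and *Chil3* were at 0.269 CPM or less in every M[0] library. In M[IL-4], *Arg1* was at 193, 150 and 201 CPM with Veh and at 39.9, 51.8 and 59.1 with HC3. *Chil3* was at 334, 556 and 369 with Veh and at 399, 744 and 494 with HC3, where the libraries overlapped but HC3 was the higher in each of the 3 same-numbered pairs.

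Genes of the integrated stress response had mostly negative interactions. Of 40 tested, 7 were called negative (all genes 0.761%) and 0 positive (all genes 0.481%), and 35 had a negative value. On the FDR alone 24 passed as negative and 0 as positive (all genes 6.48% either way). HC3 called 30 of the 40 higher in M[0] (all genes 5.93%) and 20 in M[IL-4] (all genes 4.72%), with list medians of 1.52 and 1.02. The list's IL-4 response had a median of 0.53 under Veh and of 0.03 under HC3, and its median interaction was -0.47 (all genes -0.01). By role, the 9 genes of amino acid synthesis had a median interaction of -1.02, the 7 transporters -0.41, the 9 tRNA synthetases -0.47, the 7 transcription factors -0.30 and the 8 regulators -0.15. The 7 called genes were the cystine transporter *Slc7a11*, the glutathione-degrading enzyme *Chac1*, the pseudokinase *Trib3*, the asparagine synthetase *Asns*, the serine synthesis enzymes *Phgdh* and *Psat1* and the mitochondrial folate enzyme *Mthfd2*.

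*Slc7a11* (ENSMUSG00000027737, chr3:49892526-50443614, minus strand) had 4.42, 5.87 and 4.03 CPM in Veh M[0], 63.5, 102 and 56.1 in HC3 M[0], 11, 17.2 and 13 in Veh M[IL-4] and 30.7, 59.0 and 41.0 in HC3 M[IL-4]. HC3 libraries were above Veh libraries in both states. IL-4 raised the level under Veh, and under HC3 the M[IL-4] libraries lay mostly below those of M[0]. The log2 fold change of HC3 was 3.95 (SE 0.268) in M[0] and 1.66 (SE 0.236) in M[IL-4], an interaction of -2.29 (SE 0.359, edgeR FDR = 0.000656). *Chac1* had 0.995, 0.764 and 0.807 CPM in Veh M[0], 15.0, 18.9 and 18.2 in HC3 M[0], 3.71, 1.92 and 3.70 in Veh M[IL-4] and 20.8, 19.2 and 18.5 in HC3 M[IL-4]. With HC3 the levels with and without IL-4 were close, whereas with Veh they were separate, and the interaction was -1.69 (SE 0.311, FDR = 0.00241).

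*Asns* had 36.8, 27.1 and 31.5 CPM in Veh M[0], 174, 165 and 154 in HC3 M[0], 85.7, 66.9 and 81.0 in Veh M[IL-4] and 189, 205 and 186 in HC3 M[IL-4]. The order of the groups was the same as for *Chac1*, with no overlap between Veh and HC3 in either state. Its interaction was -1.06 (SE 0.137, edgeR FDR = 0.00012) and fell short of the fold threshold without replicate 2 of Veh M[0] or replicate 1 of Veh M[IL-4]. *Mthfd2* had 33.4 ± 3.38, 169 ± 5.33, 82.9 ± 0.881 and 193 ± 7.97 CPM (SD, n = 3) in Veh M[0], HC3 M[0], Veh M[IL-4] and HC3 M[IL-4], with an interaction of -1.12 (SE 0.0949, FDR = 1.67e-06). *Phgdh* had 16 ± 5.26, 84.0 ± 2.59, 58.5 ± 11.5 and 106 ± 4.53 CPM in the same order, with an interaction of -1.53 (SE 0.228, FDR = 0.000415), and 84.3% of its transcript is nearly identical to the pseudogene *Gm7901*. For all 3 the IL-4 response was called under Veh (1.29, 1.31 and 1.87) and did not pass the FDR under HC3 (0.24, 0.18 and 0.33). *Psat1* and *Trib3*, named outside the rule, had interactions of -1.30 (SE 0.227, FDR = 0.00162) and -1.07 (SE 0.164, FDR = 0.000552). The call of *Trib3* was lost without replicate 1 of Veh M[0] or replicate 3 of Veh M[IL-4].

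The promoters of *Slc7a11* and *Chac1* are shown because these 2 genes had the largest interactions of the list and hold a composite C/EBP-ATF motif, the kind of element that ATF4 is known to bind. The motif was searched as TTNCATCA on both strands in the 250 bases before each start in RefSeq (GRCm38.p6). It was found in 3 of the 7 called genes (*Slc7a11*, *Chac1* and *Asns*) and in 3.45% of all 32851 promoters. The 200 bases before the start are printed on the gene's strand, 5′ to 3′, with the motif in capitals. The window of *Slc7a11* is chr3:50443614-50443813, minus strand, with motifs beginning 66 and 47 bases before the start. That of *Chac1* is chr2:119351042-119351241, plus strand, with a motif beginning 193 bases before the start. A match of letters is not evidence of binding in these cells.
Slc7a11: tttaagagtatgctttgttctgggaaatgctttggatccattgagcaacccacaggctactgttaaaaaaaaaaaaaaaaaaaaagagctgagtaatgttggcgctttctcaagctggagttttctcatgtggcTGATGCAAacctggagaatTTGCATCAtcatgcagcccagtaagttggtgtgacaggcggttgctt
Chac1: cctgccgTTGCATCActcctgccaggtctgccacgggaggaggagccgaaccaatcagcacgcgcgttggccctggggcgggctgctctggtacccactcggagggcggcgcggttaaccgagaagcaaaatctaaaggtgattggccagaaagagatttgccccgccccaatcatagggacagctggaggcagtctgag

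Of 30 ER chaperones and other genes of the unfolded protein response, 0 were called (all genes 1.24%), with a median of -0.14, and the 2 with the lowest FDR had opposite signs, the disulfide isomerase *Pdia6* at -0.43 (FDR = 0.00604, edgeR) and the ER stress sensor *Atf6* at 0.41 (FDR = 0.00768). Targets of NRF2, the factor of antioxidant defence, had no call among 18. All 18 values were negative with a median of -0.38, and 9 passed the FDR alone (all genes 6.48%). Among them, *Srxn1* was at 150 ± 14.4 and 414 ± 9.99 CPM with Veh and HC3 in M[0] and at 168 ± 11.4 and 298 ± 11.7 in M[IL-4] (interaction -0.63, FDR = 0.000475), and *Slc48a1* had an interaction of -0.71 (FDR = 0.000267). Of 19 targets of p53, 0 were called, with a median of -0.03, and *Sesn1* (0.83, FDR = 0.00334) and *Cdkn1a* (-0.40, FDR = 0.00416) had opposite signs.

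**Figure D3:**
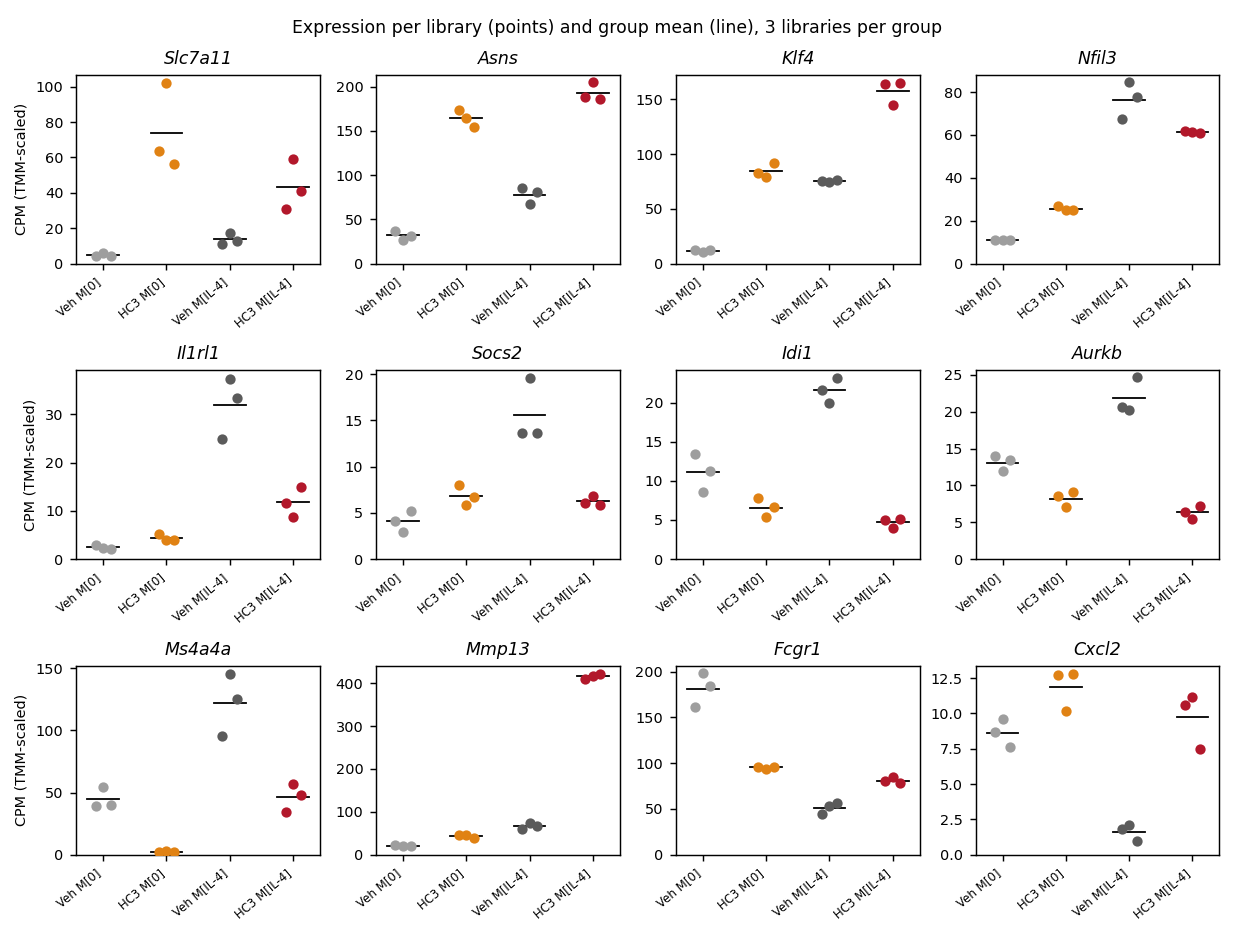
Expression (CPM, linear axes from 0) of 12 genes in each of the 12 libraries, with 1 point per library and a line at the mean of the 3 libraries of a group. *Socs2* and *Il1rl1* are higher with HC3 than with Veh in M[0] and lower in M[IL-4], while *Fcgr1* shows the reverse.

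Genes of cell division had almost only negative interactions. All 41 tested mitosis genes and 44 of 45 DNA replication genes had negative values, with medians of -0.85 and -0.61. In these lists 6 and 5 genes were called, all negative (all genes 0.761%). On the FDR alone 17 of each list passed (all genes 6.48%). IL-4 gave median log2 fold changes of 0.40 and 0.49 in these lists under Veh and of -0.45 and -0.12 under HC3. The response to HC3 had medians of -0.50 and -0.37 in M[0], against -1.30 and -0.99 in M[IL-4]. Called mitosis genes were the kinases *Aurkb*, *Bub1* and *Ttk*, the spindle proteins *Kif4* and *Prc1* and the kinetochore protein *Nuf2*. Called replication genes were the licensing factors *Cdc6* and *Mcm10*, the chromatin assembly factor *Chaf1a*, cyclin E1 (*Ccne1*) and *Uhrf1*, which maintains DNA methylation at replication. The count of mitosis genes was 2 without replicate 1 of HC3 M[0] or without replicate 2 of HC3 M[IL-4] and 10 without replicate 2 of HC3 M[0]. That of replication genes was 8 without replicate 2 of HC3 M[0] and 3 without replicate 1 of Veh M[IL-4].

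*Aurkb* had 14, 11.9 and 13.4 CPM in Veh M[0], 8.51, 7.02 and 9.05 in HC3 M[0], 20.6, 20.3 and 24.7 in Veh M[IL-4] and 6.40, 5.48 and 7.23 in HC3 M[IL-4]. Veh libraries were higher with IL-4 than without it, and HC3 libraries were below Veh libraries in both states. The interaction was -1.10 (SE 0.231, edgeR FDR = 0.00689) and was not called without replicate 2 of HC3 M[IL-4]. *Cdc6* had 6.75, 5.35 and 6.29 CPM in Veh M[0], 6.37, 4.30 and 5.52 in HC3 M[0], 10.2, 11.3 and 11.5 in Veh M[IL-4] and 4.36, 3.71 and 3.34 in HC3 M[IL-4]. The M[0] groups overlapped, with HC3 the lower in each of the 3 same-numbered pairs, and the M[IL-4] groups did not overlap. The interaction was -1.35 (SE 0.251, FDR = 0.00268). *Ccne1* had 6.58 ± 0.684 and 8.16 ± 0.993 CPM in M[0], against 11.7 ± 1.13 and 5.93 ± 1.16 in M[IL-4] (interaction -1.28, FDR = 0.00256).

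*Uhrf1* had 33.7, 31.5 and 32.0 CPM in Veh M[0], 22.1, 16.5 and 21.6 in HC3 M[0], 67.2, 56.0 and 57.0 in Veh M[IL-4] and 17.3, 14.1 and 15.8 in HC3 M[IL-4]. HC3 libraries were lower in both states, and the separation was wider in M[IL-4]. Its interaction was -1.24 (SE 0.228, edgeR FDR = 0.00243), and 44.3% of its transcript is nearly identical to *Gm5648*. *Fanci*, a DNA repair gene outside both lists, had an interaction of -1.88 (SE 0.390, FDR = 0.00623), with 4.64 ± 0.891 and 3.25 ± 1.04 CPM in M[0], against 8.76 ± 1.45 and 1.67 ± 0.296 in M[IL-4]; 16% of its exonic length lies opposite another gene. *Bub1* and *Kif4* were called at -1.07 (FDR = 0.00918) and -1.14 (FDR = 0.0109). The call of *Bub1* was lost without replicate 1 of HC3 M[0] and that of *Kif4* without replicate 2 of HC3 M[IL-4].

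A promoter of *Uhrf1* is printed because it holds a match to the letters TTTNNCGC, by which the motif of E2F was searched. E2F is the family known to control genes of the G1 to S transition. The promoter of *Cdc6* also holds a match but overlaps an annotated transcript and is not shown. Another start of *Uhrf1*, also not shown, has the match TTTCGCGC beginning 185 bases before it. The letters TTTNNCGC, on either strand, occurred in 2 of 10 called genes of both lists with a promoter entry (*Uhrf1* and *Cdc6*) and in 4.28% of all promoters. TTTGAA, the core of the cell cycle homology region, occurred in 1 of 5 called mitosis genes (*Prc1*) and in 16% of all promoters. The window is chr17:56303137-56303336 of GRCm38, plus strand, from RefSeq, with the matched letters in capitals.
Uhrf1: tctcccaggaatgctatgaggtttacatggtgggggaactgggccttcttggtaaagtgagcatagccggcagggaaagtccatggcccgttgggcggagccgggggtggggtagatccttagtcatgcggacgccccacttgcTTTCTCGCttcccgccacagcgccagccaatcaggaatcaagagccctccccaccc

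Sterol and fatty acid synthesis genes had mostly negative interactions. Of 25 tested sterol genes, 23 had a negative interaction, with a median of -0.69, and 3 were called negative and 0 positive. On the FDR alone 15 passed as negative (all genes 6.48% either way). Of 11 fatty acid synthesis genes, all were negative with a median of -0.39 and 2 were called. Among all genes 0.761% were called negative. The IL-4 response of the sterol list had a median of 0.52 under Veh and of -0.14 under HC3, and HC3 itself gave -0.29 in M[0] against -0.97 in M[IL-4]. For fatty acid synthesis the median response to HC3 was 0.10 in M[0] (2 called higher, 0 lower) and -0.37 in M[IL-4] (1 higher, 2 lower). Among all genes HC3 called 5.93% higher and 6.11% lower in M[0], and 4.72% higher and 5.53% lower in M[IL-4]. The sterol count was 5 or 6 on leaving out replicate 1 or 3 of Veh M[0], replicate 3 of HC3 M[0], replicate 2 of Veh M[IL-4], or replicate 1 or 3 of HC3 M[IL-4].

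*Idi1*, the isopentenyl diphosphate isomerase, had 13.4, 8.63 and 11.3 CPM in Veh M[0], 7.81, 5.33 and 6.63 in HC3 M[0], 21.6, 19.9 and 23.2 in Veh M[IL-4] and 5.04, 3.93 and 5.09 in HC3 M[IL-4]. IL-4 libraries were the highest under Veh and the lowest under HC3. The interaction was -1.45 (SE 0.256, edgeR FDR = 0.00176), and 33.3% of the transcript is nearly identical to *Gm13502* or *Gm48574*. *Cyp51*, the lanosterol demethylase, had overlapping M[0] levels (47.7, 35.3 and 42.2 CPM with Veh and 38.4, 32.9 and 31.1 with HC3) and separate M[IL-4] levels (74.6, 85.9 and 76.8 with Veh and 26.8, 26.1 and 27.4 with HC3). In M[0] HC3 was the lower in each of the 3 same-numbered pairs. Its interaction was -1.27 (SE 0.175, FDR = 0.000209).

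*Scd2*, a stearoyl-CoA desaturase, had 59.1, 38.2 and 58.5 CPM in Veh M[0], 69.3, 55.6 and 61.6 in HC3 M[0], 104, 107 and 120 in Veh M[IL-4] and 49.8, 37.8 and 47.6 in HC3 M[IL-4]. The M[0] libraries overlapped, with HC3 the higher in each of the 3 same-numbered pairs, and in M[IL-4] each HC3 library was less than each Veh library, with an interaction of -1.55 (SE 0.244, edgeR FDR = 0.000672). The fatty acid desaturase *Fads2* was called at -1.22 (FDR = 0.0235), a call lost without replicate 2 of Veh M[0], replicate 1 of HC3 M[0], replicate 3 of Veh M[IL-4] or replicate 2 of HC3 M[IL-4]. The sterol regulatory element TCACNCCAC was absent from the 250 bases before the start in the 3 called genes with a promoter entry, and 1.05% of all promoters held it.

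No LXR target or gene of the lipid uptake and storage list was called for the interaction (all genes 1.24%). Among 8 LXR targets the median was 0.28, with the LDL receptor ligase *Mylip* at 0.51 (edgeR FDR = 0.0382) and the cholesterol exporter *Abca1* at 0.60 (FDR = 0.0645). Among 20 genes of lipid uptake and storage the median was 0.02, with the lipid droplet coat gene *Plin2* at 0.46 (FDR = 0.0232), where HC3 M[0] and HC3 M[IL-4] had the same mean of 1880 CPM (SD 110 and 156) and Veh had 1490 ± 137 and 1090 ± 62.6.

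Of 27 tested choline and phosphatidylcholine genes, 0 were called for the interaction (all genes 1.24%), 3 passed the FDR alone as positive and 1 as negative (all genes 6.48%), and the median was 0.10. HC3 itself called 3 higher (all genes 5.93%) and 3 lower (6.11%) in M[0]. In M[IL-4] it called 1 higher (all genes 4.72%) and 0 lower (5.53%). The choline transporter *Slc44a1* had 164, 161 and 150 CPM in Veh M[0], 101, 103 and 89.1 in HC3 M[0], 131, 150 and 126 in Veh M[IL-4] and 75.7, 92.8 and 82.6 in HC3 M[IL-4]. It was lower with HC3 in every library of either state, by -0.69 in each, with an interaction of 0.00 (SE 0.136, edgeR FDR = 0.999). *Slc44a2* was at 0.20 (SE 0.134, FDR = 0.452), *Chka* (choline kinase) at -0.07 (SE 0.132, FDR = 0.858), *Pcyt1a* (the rate-limiting enzyme of phosphatidylcholine synthesis) at 0.35 (SE 0.137, FDR = 0.152) and *Flvcr1*, a choline transporter, at 0.10 (SE 0.168, FDR = 0.831). *Chkb* had at most 1.08 CPM, 58.7% of its transcript is shared with overlapping loci, and its interaction was uncertain (0.73, SE 0.749). The 2 lowest FDR values in the list belonged to the phospholipase *Pla2g4a* (-0.67, FDR = 0.000666) and the acyltransferase *Lpcat1* (0.55, FDR = 0.00119), both short of the fold threshold.

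**Figure D4:**
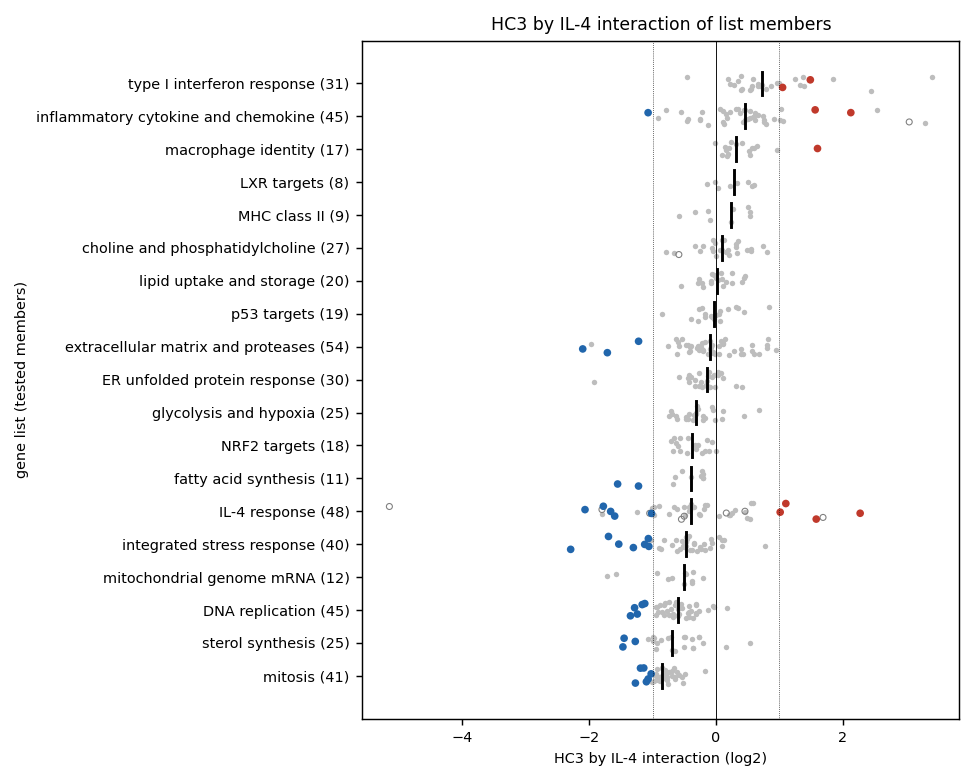
Interaction (log2, x axis) of the tested members of each gene list (y axis, number tested in parentheses), with called genes in red (positive) or blue (negative), open circles where a group held 3 counts or fewer, and a bar at the list median. Medians run from -0.85 for mitosis to 0.72 for the type I interferon response, and dotted lines mark the fold threshold of 1.

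Type I interferon response genes leaned the other way. Of 31 tested, 30 had a positive interaction with a median of 0.72, and 2 were called, both positive (all genes 0.481%). On the FDR alone no further member passed, so 2 of 31 did, a share near that of all genes (6.48% either way). With the replicate block within each polarization 8 were called, with the plain replicate block 5, with only the 12 libraries 5 and without a count filter 9. Without replicate 2 of Veh M[0] or replicate 1 of Veh M[IL-4], 1 was called. The list was lower with HC3 in M[0] (median -1.06) and near its Veh level in M[IL-4] (-0.24), while IL-4 gave a median of -0.71 under Veh and of 0.00 under HC3. *Oas2*, a sensor of double-stranded RNA, had 55.7, 62.0 and 53.2 CPM in Veh M[0], 19.4, 20.3 and 17.2 in HC3 M[0], 14.6, 15.0 and 19.0 in Veh M[IL-4] and 14.3, 15.5 and 15.6 in HC3 M[IL-4]. Only the Veh M[0] libraries were high, and the interaction was 1.49 (SE 0.258, edgeR FDR = 0.00159). Of the called genes 1 had a promoter entry, without the interferon-stimulated response element, which 2.98% of all promoters held.

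*Ifitm3*, a restriction factor for virus entry, had 168, 203 and 170 CPM in Veh M[0], 195, 193 and 181 in HC3 M[0], 52.2, 64.3 and 76.1 in Veh M[IL-4] and 148, 134 and 138 in HC3 M[IL-4]. Here only the Veh M[IL-4] libraries were low. The interaction was 1.05 (SE 0.166, edgeR FDR = 0.000697) and fell short of the threshold without replicate 2 of Veh M[0] or replicate 1 of Veh M[IL-4]. *Gbp9*, an interferon-inducible GTPase named after its values were seen, was at 36.4 ± 3.31 and 19.2 ± 0.955 CPM with Veh and HC3 in M[0] and at 15.4 ± 3.61 and 26.1 ± 5.10 in M[IL-4] (interaction 1.69, FDR = 0.000804).

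Among 45 inflammatory cytokine, chemokine and receptor genes, 2 were called positive (all genes 0.481%) and 1 negative (all genes 0.761%). A positive value was found in 35, and the median was 0.45. *Cxcl2*, a neutrophil-attracting chemokine, had 8.68, 9.63 and 7.64 CPM in Veh M[0], 12.7, 10.2 and 12.8 in HC3 M[0], 1.83, 2.09 and 0.952 in Veh M[IL-4] and 10.6, 11.2 and 7.5 in HC3 M[IL-4]. The Veh M[IL-4] libraries stood below all others, so IL-4 lowered *Cxcl2* under Veh (-2.41) and did not pass the test under HC3 (-0.28, FDR = 0.306). The interaction was 2.12 (SE 0.279, edgeR FDR = 0.000144), and 5.61% of the transcript is nearly identical to *Cxcl3*. *Nfkbiz*, an atypical IκB protein, was lowered by IL-4 under Veh (-2.70) and less so under HC3 (-1.14), with 48.2 ± 8.60 and 42.8 ± 4.02 CPM in M[0], against 7.40 ± 1.56 and 19.4 ± 2.10 in M[IL-4] (interaction 1.56, FDR = 0.000257). The chemokine receptor *Ccr1* was called negative at -1.07 (FDR = 0.00995), which did not hold without replicate 3 of Veh M[0], replicate 2 of HC3 M[0], replicate 2 of Veh M[IL-4] or replicate 3 of HC3 M[IL-4]. Of 9 MHC class II genes 0 were called (all genes 1.24%), with a median of 0.24, *H2-DMb1* at -0.58 (FDR = 0.0601) and *H2-Eb1* at 0.53 (FDR = 0.405).

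*Fcgr1*, the high-affinity IgG receptor and the 1 called gene among 17 tested macrophage markers (all genes 1.24%), was lowered by either treatment alone. It had 161, 199 and 184 CPM in Veh M[0], 96.0, 94.1 and 96.3 in HC3 M[0], 43.9, 53.6 and 56.7 in Veh M[IL-4] and 80.3, 84.5 and 78.4 in HC3 M[IL-4]. HC3 libraries were below Veh in M[0] and above Veh in M[IL-4]. The interaction was 1.58 (SE 0.153, edgeR FDR = 7.81e-06). Of the 17 markers, 16 had a positive interaction, with a median of 0.31, and 11 were called lower with HC3 in M[0] (all genes 6.11%) and 6 in M[IL-4] (5.53%). A second marker was called without replicate 2 of Veh M[0] or replicate 1 of HC3 M[0].

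The largest positive interaction among well-counted genes was that of *Ms4a4a* (ENSMUSG00000101389, chr19:11375523-11392790, plus strand), a tetraspan membrane protein of macrophages. It had 39.1, 54.2 and 39.8 CPM in Veh M[0], 2.19, 2.77 and 2.0 in HC3 M[0], 95.1, 145 and 125 in Veh M[IL-4] and 34.1, 56.7 and 48.0 in HC3 M[IL-4]. HC3 libraries were lower in both states, and those of M[0] were the lowest of all. HC3 lowered *Ms4a4a* by a log2 fold change of -4.25 (SE 0.250) in M[0] and of -1.39 (SE 0.178) in M[IL-4], an interaction of 2.86 (SE 0.315, edgeR FDR = 2.64e-05). *Slco2b1*, an organic anion transporter, was also lower with HC3 in both states, but with IL-4 it was lower under Veh (-0.91) and higher under HC3 (1.30). It had 17.5 ± 1.84 and 1.28 ± 0.268 CPM in M[0], against 9.27 ± 1.14 and 3.15 ± 0.503 in M[IL-4] (interaction 2.21, SE 0.377, FDR = 0.00139). *Dab2*, an endocytic adaptor named after its values were seen, was at 968 ± 61.2 and 158 ± 6.73 CPM in M[0] and at 817 ± 75.4 and 305 ± 26.4 in M[IL-4] (interaction 1.20, SE 0.116, FDR = 7.81e-06).

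*Gpr183*, the receptor for 25-hydroxycholesterol-derived oxysterols, responded to HC3 in M[0] and not detectably in M[IL-4]. It had 32.3, 32.4 and 32.0 CPM in Veh M[0], 9.52, 9.88 and 9.0 in HC3 M[0], 28.8, 30.7 and 29.2 in Veh M[IL-4] and 29.8, 28.9 and 32.0 in HC3 M[IL-4]. The HC3 M[0] libraries alone were low, and the interaction was 1.80 (SE 0.160, edgeR FDR = 2.71e-06). *Btbd11* had 13.8 ± 2.72 and 3.20 ± 0.0835 CPM in M[0], against 14.4 ± 1.71 and 11 ± 1.31 in M[IL-4] (interaction 1.71, FDR = 0.000104). *Bmp2*, a growth factor of the TGF-β family, had 14.9, 16.1 and 14.8 CPM in Veh M[0], 6.15, 5.17 and 5.89 in HC3 M[0], 3.28, 4.70 and 5.21 in Veh M[IL-4] and 7.13, 7.64 and 7.5 in HC3 M[IL-4]. HC3 libraries were lower than Veh in M[0] and higher in M[IL-4], with an interaction of 2.17 (SE 0.218, FDR = 1.12e-05).

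Of the remaining positive genes of the naming rule, *Cd4* had 4.87 ± 1.52 and 1.64 ± 0.126 CPM in M[0], against 0.575 ± 0.0973 and 0.853 ± 0.283 in M[IL-4] (interaction 2.12, edgeR FDR = 0.00657). *Adgb*, at 4.70 to 7.80 CPM in Veh M[0], 10.8 to 14.2 in HC3 M[0], 0.280 to 1.24 in Veh M[IL-4] and 3.68 to 4.76 in HC3 M[IL-4], was called at 1.74 (FDR = 0.0136) but not without replicate 3 of Veh M[IL-4]. *Ctnnd2* had 3.44 to 4.15, 0.819 to 2.09, 8.94 to 11.2 and 7.30 to 15.3 CPM in the same order, so the M[IL-4] groups overlapped. *Ctnnd2* (1.84) and *P2ry12* (1.71), an ADP receptor, each had an FDR of 0.0416 and lost the call in 10 and 9 of 20 alternatives, all of them with 1 library left out.

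*Ighm*, the immunoglobulin heavy chain μ gene of B cells, had 26.8, 23.1 and 20.5 CPM in Veh M[0], 2.57, 1.49 and 1.32 in HC3 M[0], 3.88, 5.86 and 6.89 in Veh M[IL-4] and 2.04, 1.49 and 0.876 in HC3 M[IL-4]. Veh M[0] stood far above the other groups, and the interaction was 1.80 (SE 0.441, edgeR FDR = 0.0188). It was not called without replicate 3 of HC3 M[0] or replicate 1 of HC3 M[IL-4]. Of 10 B and T cell markers, 2 passed the filter and 3 were at 0 in all 12 libraries. Their summed level was 21.4 to 27.9 CPM in Veh M[0], 1.37 to 2.68 in HC3 M[0], 4.20 to 7.06 in Veh M[IL-4] and 0.931 to 2.49 in HC3 M[IL-4], most of it *Ighm*. The part of B cells in the *Ighm* result was not tested.

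Of 54 matrix, protease and integrin genes, 3 were called, all negative (all genes 0.761%), and 4 passed the FDR alone as positive and 5 as negative (all genes 6.48%), with a median of -0.10. *Plaur*, the urokinase receptor, had 26.8, 34.6 and 31.6 CPM in Veh M[0], 47.7, 52.2 and 50.1 in HC3 M[0], 73.5, 73.3 and 71.1 in Veh M[IL-4] and 51.0, 50.6 and 49.3 in HC3 M[IL-4]. HC3 gave nearly the same level with and without IL-4, above Veh in M[0] and below it in M[IL-4], and the interaction was -1.22 (SE 0.126, edgeR FDR = 1.48e-05). *Itgb3*, integrin β3, had 14.3, 16.9 and 12.1 CPM in Veh M[0], 36.1, 58.7 and 35.4 in HC3 M[0], 86.1, 106 and 93.1 in Veh M[IL-4] and 75.3, 110 and 77.9 in HC3 M[IL-4]. HC3 raised it in M[0] only, with an interaction of -1.71 (SE 0.259, FDR = 0.000475). *Itgb8* was called at -2.10 (FDR = 0.0282), and not without replicate 1 or 2 of Veh M[0], replicate 1 of HC3 M[0], replicate 2 of Veh M[IL-4] or replicate 3 of HC3 M[IL-4]. Positive members, 1 or 2, were called without replicate 1 of Veh M[0], replicate 3 of HC3 M[0], replicate 1 of Veh M[IL-4] or replicate 2 of HC3 M[IL-4]. The stromal marker sum was higher with HC3 in M[0], and in M[IL-4] its ranges overlapped. None of its 9 tested genes was called for the interaction, *Pdgfra* was at 0.59 (FDR = 0.539) and *Postn* at -0.38 (FDR = 0.565), and the part of stromal cells in the matrix results was not tested.

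Several strong negative interactions belonged to no list. *Edn1*, endothelin 1, had 0.664, 0.646 and 1.24 CPM in Veh M[0], 7.60, 5.58 and 6.73 in HC3 M[0], 8.77, 6.5 and 9.74 in Veh M[IL-4] and 14.7, 8.41 and 16.4 in HC3 M[IL-4]. Veh M[0] was the low group, and HC3 and Veh overlapped in M[IL-4], although HC3 was the higher in each of the 3 same-numbered pairs. The interaction was -2.29 (SE 0.436, edgeR FDR = 0.00311). *F3*, tissue factor, was high in HC3 M[0] alone, at 3.32, 5.58 and 4.10 CPM against 0.442 to 1.59 in the other 9 libraries, with an interaction of -1.94 (SE 0.453, FDR = 0.0139).

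*Nes*, the intermediate filament nestin, had 35.3, 38.6 and 51.0 CPM in Veh M[0], 55.7, 35.6 and 51.7 in HC3 M[0], 110, 107 and 120 in Veh M[IL-4] and 38.9, 32.1 and 41.2 in HC3 M[IL-4]. Only Veh M[IL-4] was high, and the interaction was -1.77 (SE 0.227, edgeR FDR = 0.00011). *Hebp2*, a heme-binding protein, had 1.15 ± 0.252 and 1.96 ± 0.370 CPM in M[0], against 7.07 ± 1.47 and 1.87 ± 0.0452 in M[IL-4] (interaction -2.68, SE 0.394, FDR = 0.000372). *B3gnt7*, an N-acetylglucosaminyltransferase, had 0.80 ± 0.0334 and 1.29 ± 0.0913 CPM in M[0], against 10.3 ± 0.698 and 3.89 ± 0.399 in M[IL-4] (interaction -2.09, SE 0.311, FDR = 0.000415), with 12.6% of its exonic length opposite another gene.

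In 7 called genes at least 1 group held 3 counts or fewer over its 3 libraries, so the fitted difference is not a measured size. *Selp*, P-selectin, was at 0, 0 and 0.0538 CPM in Veh M[0], 5.72, 6.5 and 5.42 in HC3 M[0], 0.754, 0.755 and 0.560 in Veh M[IL-4] and 4.13, 5.15 and 4.93 in HC3 M[IL-4]. HC3 brought it to similar levels with and without IL-4, and the call (edgeR FDR = 7.38e-05) rests on the Veh libraries; 18.3% of its transcript is shared with *Gm16548* or *Gm16587* and 14.1% of its exonic length lies opposite another gene. *Gm38575* was at 0 in Veh M[0], 1.77, 1.64 and 1.63 in HC3 M[0], 0.269 to 0.728 in Veh M[IL-4] and 4.19 to 4.76 in HC3 M[IL-4] (FDR = 0.0177). *Tuba8* was detected mainly in Veh M[IL-4], at 0.754, 1.68 and 0.896 CPM, and at 0.221 or less elsewhere, and DESeq2 did not call it. *Cyp2ab1* (FDR = 0.0285) lost its call in 7 of 20 alternatives.

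**Figure D5:**
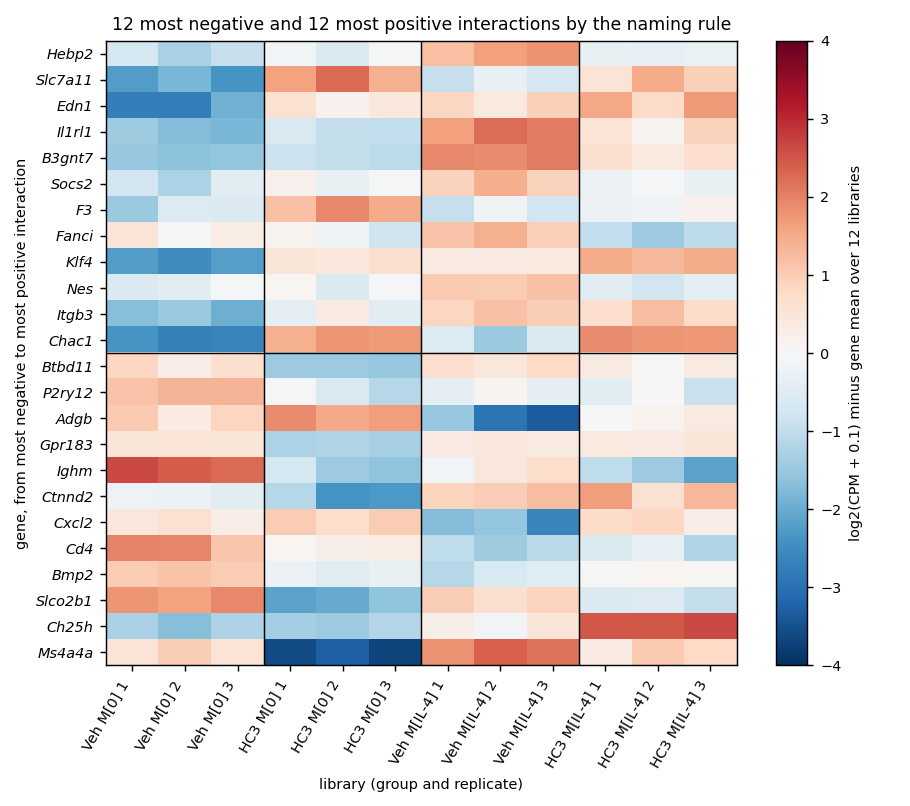
Level of 24 genes (y axis, the 12 most negative and 12 most positive interactions by the naming rule) in each of the 12 libraries (x axis), as log2(CPM + 0.1) minus the mean of the gene over the 12 libraries. Blue is below and red above that mean, and *Ms4a4a* is lowest in the 3 HC3 M[0] libraries and *Ch25h* highest in the 3 HC3 M[IL-4] libraries.

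Of 25 genes of glycolysis and hypoxia 0 were called (all genes 1.24%), 21 had negative values, and the median was -0.31. On the FDR alone 13 passed as negative and 1 as positive (all genes 6.48% either way). *Pfkp*, a phosphofructokinase, had 114 ± 5.05 and 144 ± 3.61 CPM in M[0], against 246 ± 6.68 and 203 ± 6.77 in M[IL-4], so HC3 libraries were above Veh in M[0] and below Veh in M[IL-4] (interaction -0.61, SE 0.0716, edgeR FDR = 5e-05). *Pgk1* had the same order (-0.69, FDR = 0.000276), with 68.8% of its transcript nearly identical to other loci. All 12 tested mRNA genes of the mitochondrial genome were lower with HC3 in both states, with medians of -3.88 in M[0] against -4.75 in M[IL-4]. Their interactions were all negative with a median of -0.50 and 0 were called (all genes 1.24%). The count was 1 with the replicate block within each polarization, with DESeq2 and without a count filter. It was also 1 without replicate 1 or 3 of Veh M[IL-4] or replicate 3 of HC3 M[IL-4]. *mt-Nd1* was at 1990, 1760 and 1630 CPM in Veh M[0], 176, 141 and 152 in HC3 M[0], 1970, 2570 and 2190 in Veh M[IL-4] and 111, 106 and 132 in HC3 M[IL-4], an interaction of -0.75 (SE 0.180, FDR = 0.0163). *mt-Co2* was at -0.93 (FDR = 0.0569), and 99.6% of its sequence is nearly identical to *Gm28661*.

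The interaction of RSM with IL-4 is set beside that of HC3, with which it shares the Veh libraries. It was called for 321 genes (2.14%), 183 positive (1.22%) and 138 negative (0.921%), and 9.19% passed the FDR alone. Of the genes called for HC3, 49 of 72 positive and 70 of 114 negative ones were also called for RSM. Since the Veh libraries enter both interactions, likeness between the 2 is not independent evidence. Side by side, the HC3 and RSM interactions were -1.78 and -1.75 for *Klf4*, -2.27 and -2.25 for *Il1rl1*, -1.27 and -1.31 for *Cyp51* and 1.80 and 1.76 for *Gpr183*. They lay further apart, without a call for the difference, for *Edn1* (-2.29 and -0.96), *B3gnt7* (-2.09 and -1.14), *Btbd11* (1.71 and 2.64) and *Cd4* (2.12 and 3.17). The list medians for HC3 and RSM were -0.40 and 0.30 for IL-4 response genes, 0.72 and 1.5 for interferon genes and -0.50 and -0.08 for mitochondrial mRNA. They lay closer for the integrated stress response (-0.468 and -0.586) and mitosis (-0.852 and -0.876). The same held for DNA replication (-0.606 and -0.575) and sterol synthesis (-0.69 and -0.725). These genes and lists were chosen with their values known.

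The difference between both interactions was tested directly, where the Veh libraries cancel. It was called for 11 genes (0.0734%), all with a lower value for HC3 and those named here chosen with their values known, and 28 passed the FDR alone (0.187%). With the replicate block within each polarization it was called for 45. *Itgax*, the integrin CD11c, had an interaction of -0.89 with HC3 and of 1.20 with RSM, which differed by -2.10 (SE 0.226, edgeR FDR = 0.00038). Those of *Egr2*, a factor induced by IL-4, were -0.51 and 0.83 (difference -1.33, SE 0.154, FDR = 0.000532), and those of *Atp6v0d2*, a subunit of the lysosomal proton pump, -0.43 and 1.10 (difference -1.53, SE 0.226, FDR = 0.00388). *Ccl7*, a monocyte chemokine, had 0.55 and 2.17 (difference -1.62, SE 0.266, FDR = 0.0109). Of the 11, *Bmp2* (2.17 and 3.43), *Itgb3* (-1.71 and -0.18) and *Gng4* (1.43 and 3.26) were also called for the HC3 interaction. For the other 183 HC3 genes the difference between the inhibitors was not called, which does not show that they were equal. The estimated difference was -0.03 (SE 0.113) for *Klf4*, 0.83 (SE 0.298) for *Slc7a11* and -1.62 (SE 0.514) for *Mboat2*.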

How the data were processed

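Poly-T selected mRNA of 18 libraries was sequenced. Per the labels and the methods of the study, the authors removed adapters (fastp), mapped read pairs to GRCm38 in local mode (STAR, mapping quality filter), marked but kept duplicates (Picard) and summed pairs on exons per gene (featureCounts). The deposited table holds these raw counts without normalization. The annotation release and the strand setting are not given in the sources used here. Antisense and near-identical genes are therefore named beside a value, from GENCODE M21 and a blastn comparison of transcripts. Each near-identical share refers to the longest transcript of the gene that had a match on either strand. That transcript need not be the main one.

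Counts were fitted with edgeR 4.0.16 (TMM scaling, quasi-likelihood test, R 4.3.3) in 1 model of 18 libraries over genes reaching 10 counts in 2 libraries. A call needed an FDR (Benjamini-Hochberg) below 0.05 with a log2 difference of 1 or more either way. The SE is the absolute log2 difference divided by the square root of F, and CPM values use TMM-scaled library sizes without correction for length, so levels are compared only within a gene. A total of 3 counts over a group, the floor used here, is 0.154 to 0.172 CPM. Depth was 17457796 to 19285482 counts per library, and replicates differed by more than sampling noise (chi-square 6.3 to 20.3 per gene). Genes were named by rule. These were the 12 largest positive and 12 largest negative interactions among called genes with one sign in all 3 same-numbered sets (group means of 10 counts or more, the highest 50 or more), the 4 best-counted called genes with a group at the floor, genes called in opposite directions (highest group mean 50 or more), the 3 called members of lowest FDR in each list or else 2 uncalled ones, and 10 IL-4 and choline genes. The members, lists and rules were chosen with earlier results of these data known.

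Same-numbered libraries deviated together within a polarization (6 of 6 pairs, r 0.13 to 0.357) but in 6 of 12 pairs across them (r -0.0311 to 0.264), so the block was an alternative, as were DESeq2 1.42.0, other filters and scalings, only 12 libraries, mitochondrial genes left out, and each library left out. On simulated counts of 14803 genes for this interaction, edgeR recovered 97 of 100 genes changed by a log2 of 1.5 and 98 of 100 changed by 2, with 2 false calls. The changed genes were well counted in every group, their changes exceeded the fold threshold, and libraries were drawn independently. These rates therefore do not cover genes with low counts, smaller differences or replicates that deviate together. One called gene is counted but not reported here.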

Additional observations from a re-analysis of the deposited data

Results flagged for a closer look

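Differences of an effect between groups, each tested by the difference itself, mark all results given here. The response to HC3 differed between M[0] and M[IL-4] in 186 genes by the edgeR interaction test. In 5 of them, *Mboat2*, *Hs3st1*, *Diras2*, *Col7a1* and *Cd27*, HC3 was called in opposite directions in both states, with interactions of -4.50, -4.03, -2.92, -2.26 and 2.97. Only *Mboat2* had a highest group mean of 50 counts or more, and it kept its interaction call in all 20 alternatives. *Cd27* lost its interaction call in 12 of the 20 and *Col7a1* in 7, DESeq2 included. *Hs3st1* and *Diras2* lost theirs with DESeq2 only.

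The interaction with IL-4 differed between HC3 and RSM in 11 genes, always with the lower value for HC3. The differences were -2.10 for *Itgax*, -1.33 for *Egr2*, -1.79 for *Nptx1*, -1.53 for *Atp6v0d2*, -1.04 for *Arap2*, -1.62 for *Ccl7*, -1.53 for *Itgb3*, -1.83 for *Gng4*, -1.27 for *Bmp2* and -1.13 for *Tbc1d4*. For *Gm8989*, a predicted gene, the fitted difference was -7.01 (SE 1.17, edgeR FDR = 0.0151). It held 17 counts over the HC3 M[0] libraries and 89 over those of HC3 M[IL-4]. Its RSM interaction was fitted at 5.81 (SE 1.3), so the size of the difference is uncertain.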

How the results depend on the processing

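The count of 186 genes was 141 (without replicate 2 of Veh M[0]) to 198 (without replicate 2 of HC3 M[0]) on leaving out 1 library, and 180 to 242 with DESeq2, no or another count filter, library size scaling, only 12 libraries, mitochondrial genes left out or the plain replicate block (239). Of the called genes, 159 had a mean of at least 10 counts in each group. With the replicate block within each polarization it was 288, with 123 positive. On the FDR without a fold threshold it was 970, with 461 positive and 509 negative. Of the 186 genes, 87 kept their call in all 20 alternatives, 99 lost it in at least 1 and 0 reversed. Of the 52 named genes that were called, 36 kept the call throughout, and of 37 named but not called, 2 were called in some alternative, *Retnla* with DESeq2 and *mt-Co2* without replicate 3 of Veh M[IL-4].

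The count of 11 genes for HC3 minus RSM was less stable, at 25 with DESeq2, 49 without a count filter, 32 with the replicate block, 45 with the block within each polarization, and 8 (without replicate 1 of HC3 M[0]) to 18 (without replicate 2 of Veh M[IL-4]) with 1 library left out. The cause was not tested. Low counts limit the size of differences where a group held few counts, since the fitted value then depends on the prior count.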

Other observations

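Some called genes outside the lists act in prostanoid signalling, and they were chosen after their values were seen. The interaction was -1.34 for *Ptgir*, the prostacyclin receptor, and -1.12 for *Ptger2*, a prostaglandin E2 receptor. It was 1.14 for *Ptger4*, another prostaglandin E2 receptor, with 16.5% of its exonic bases opposite another gene, and 1.29 for *Hpgd*, which inactivates prostaglandins. No list of this pathway was counted.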
